A study of Mus musculus with 12 samples.

Results

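Regulatory T cells (Treg) of expanded clones were set against Treg whose receptor was seen once in the same library, in T cells sorted from the pancreatic islets of NOD mice. A Treg was a cell barcode with a CD4 antibody count of at least 40, no UMI (a unique molecular identifier, 1 captured RNA molecule) of Cd8a or Cd8b1, at least 1 Foxp3 UMI, at least 500 gene UMIs and at most 8% mitochondrial UMIs. Barcodes with exactly 1 productive TRB and 1 or 2 productive TRA chains were grouped into clonotypes by identical CDR3 nucleotides of all their chains, within a library and among these Treg alone. Clonotypes of at least 2 cells were called expanded and those of 1 cell single. This selection gave 216 expanded Treg of 70 clonotypes and 713 single Treg, out of 27423 barcodes in all and of 929 Treg with such a receptor. Conventional CD4 cells, which passed the same gates with no Foxp3 UMI, gave 2263 expanded and 5978 single cells for comparison.

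The cells of every group were live cells stained for the T cell receptor from female NOD mice, a strain that develops autoimmune diabetes, taken at 12 weeks of age while pre-diabetic, and the labels name no treatment. CITE-seq counted mRNA, antibody tags (among them CD4, CD11a and a PE tag that reads CD8b) and receptor chains in the same cells, in 4 biological replicates. Whether 1 mouse or a pool makes up a replicate is not stated, so the p-values below measure the spread between these 4 libraries. All groups come from each library, so expanded and single cells were compared in pairs by library.

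Treg are CD4 T cells that depend on the transcription factor Foxp3 and restrain other T cells through receptors such as CTLA-4, by taking up IL-2 and by secreting cytokines such as IL-10. Resting Treg circulate through lymph nodes with the help of homing receptors such as CCR7, while effector Treg in tissues carry more inhibitory receptors and chemokine receptors. In NOD mice Treg accumulate in inflamed islets and their loss speeds up diabetes. Cells that share both receptor chains descend, in most cases, from a single T cell, so clone size in a tissue is a record of division.

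Replicates 1 to 4 held 67, 77, 19 and 53 expanded Treg in 22, 19, 8 and 21 clonotypes, against 168, 168, 158 and 219 single Treg. Replicate 3 thus held the fewest expanded cells, 10.7% of its Treg with a paired receptor, against 28.5%, 31.4% and 19.5% in replicates 1, 2 and 4. Of the 70 clonotypes 43 had 2 cells, 13 had 3 cells and 14 had 4 or more, and the largest clones of replicates 1 to 4 had 11, 14, 5 and 5 cells. A paired receptor was read in 65.1% of the 1427 Treg, and the other 498 Treg are in neither group. A clone seen once may hold cells that were not captured, so single means single among the cells sequenced. Libraries shared 36 to 102 barcodes per pair of libraries, and 26 of the Treg used here had a barcode that also occurred in another library, but none of their clonotypes did.

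Thinned to the same number of cells, conventional CD4 cells had 11.6%, 19.6%, 10.8% and 15.5% of their cells in expanded clones in replicates 1 to 4, below the Treg share in replicates 1, 2 and 4 and above it in replicate 3. The Treg share minus the conventional share averaged 8.15 percentage points ± 7.64 (SD of the difference, n = 4 pairs, exact sign-flip permutation p = 0.25, two-sided). The smallest p that 4 pairs can give in this test, rounded, is 0.13. The difference was -5.31 points without the thinning, since more cells sampled find more clone members.

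Foxp3 chose the cells, and its level is given as a description. Expanded Treg held 2.70, 2.90, 4.42 and 3.02 Foxp3 UMIs per cell in replicates 1 to 4, against 2.15, 2.44, 2.49 and 2.30 in single Treg. As CPM (a gene's UMIs scaled to a fixed total of gene UMIs, here unscaled between sums) the order was mixed, with 292.9, 222.5, 352.5 and 309.3 in expanded against 247.1, 316.5, 328.6 and 325.1 in single Treg. Exactly 1 Foxp3 UMI carried the label in 37.3%, 32.5%, 21.1% and 26.4% of expanded Treg and in 51.8%, 48.8%, 38.6% and 44.7% of single Treg. Droplets carry free RNA, and among CD8 cells, which should lack Foxp3, 1.53%, 0.954%, 2.12% and 1.11% had a Foxp3 UMI at a median of 4653, 4914, 2141.5 and 2850.5 gene UMIs. The shares among CD4-gated cells were 9.34%, 15.1%, 8.99% and 9.99% at a median of 3786.5, 4228.5, 3875 and 3152.5 gene UMIs.

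Ikzf2, which encodes the Treg-associated factor Helios, stood at 748.3 unscaled CPM over all expanded Treg and 676.1 over all single Treg, against 206.2 in expanded and 119.3 in single conventional cells that shared no clonotype with a Treg. For Itgae, the αE integrin chain CD103, these levels were 211.3 and 110.2 in Treg against 2.28 and 7.28 in the conventional cells. Single Treg with exactly 1 Foxp3 UMI had less Ctla4 (680.8 unscaled CPM) than those with 2 or more (1156), whereas for expanded Treg the 2 values were 1790 and 1865. At the thresholds themselves, the 10 cells with a CD4 antibody count of 40 to 49 had 1.3 Foxp3 UMIs each and the 12 cells with 30 to 39, left out, had 1.25. Clones of 2 cells had 3.16 Foxp3 UMIs per cell and a median of 6944 gene UMIs, against 2.34 and 4776 in single Treg.

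7 receptor chains from the largest Treg clones of the 4 libraries are shown because they define what an expanded clone is here. The CDR3 is the loop that makes most of the contact with the antigen peptide, and its nucleotide sequence marks descent. Capitals mark the bases between the stretch that at least 80% of deposited sequences with the same V segment share at the 5′ end and the stretch that at least 80% with the same J segment share at the 3′ end, which is where the segments were joined.
Replicate 1, 11 cells, TRAV6-5 TRAJ39: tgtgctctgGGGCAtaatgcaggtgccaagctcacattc
Replicate 1, 11 cells, TRBV1 TRBJ1-2: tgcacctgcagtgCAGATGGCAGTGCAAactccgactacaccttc
Replicate 2, 14 cells, TRAV10D TRAJ43: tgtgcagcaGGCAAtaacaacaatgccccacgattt
Replicate 2, 14 cells, TRBV17 TRBJ2-7: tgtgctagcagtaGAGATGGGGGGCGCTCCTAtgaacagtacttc
Replicate 3, 5 cells, TRAV14-1 TRAJ11: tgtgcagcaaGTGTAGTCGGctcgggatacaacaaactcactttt
Replicate 3, 5 cells, TRBV13-1 TRBJ2-3: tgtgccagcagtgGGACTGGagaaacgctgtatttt
Replicate 4, 5 cells, TRBV13-3 TRBJ1-4: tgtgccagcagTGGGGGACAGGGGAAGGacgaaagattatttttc
Of these 7 chains, the 3 TRA chains have marked middles of 5 to 10 bases and the 4 TRB chains of 7 to 19 bases.

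No clonotype of an expanded Treg occurred in a second library, but the TRB sequence alone of 3 of the 70 expanded clonotypes did (4.29%), against 12 of 713 single clonotypes (1.68%). They are shown because the same β chain was found in more than 1 replicate.
TRBV26 TRBJ2-5, expanded in replicate 1, also 1 barcode in replicate 4: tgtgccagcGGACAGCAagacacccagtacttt
TRBV13-1 TRBJ2-3, expanded in replicate 4, also 1 barcode each in replicates 1 and 2: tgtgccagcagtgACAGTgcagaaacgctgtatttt
TRBV19 TRBJ1-1, expanded in replicate 4, also 1 barcode in replicate 1: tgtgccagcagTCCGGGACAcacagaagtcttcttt
Each of these 3 was a clone of 2 Treg, and the marked middle was 8, 5 and 9 bases. TRB sequences of expanded and single clonotypes had the same median length of 42 bases, with means of 41.7 ± 4.64 (SD, n = 70 clonotypes) and 41.8 ± 4.14 bases (SD, n = 713 clonotypes).

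Among V segments, TRBV16 was the most used by expanded Treg clonotypes, in 3 of 22, 3 of 19, 2 of 8 and 7 of 21 of replicates 1 to 4, or 13.6%, 15.8%, 25.0% and 33.3%. Single Treg clonotypes used it in 6.55%, 8.33%, 5.06% and 6.39%, below the expanded share of every library. Over all libraries TRBV16 was in 21.4% of expanded and 6.59% of single Treg clonotypes, and in 51 of 510 expanded and 413 of 5978 single conventional clonotypes. TRBV5 stood at 12.9% of expanded and 10.9% of single Treg clonotypes, and the deposited label TRBV12-2+TRBV13-2 was given to 7 of 70 and 90 of 713. TRAV5-4 was the leading α segment, in 14.3% of expanded and 8.13% of single Treg clonotypes, but in none of the 8 expanded clonotypes of replicate 3. These segments were picked for their use by expanded clonotypes, so no test was made.

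A second TRA chain, which some T cells carry because both alleles can rearrange, was read in 8.96%, 0%, 0% and 13.2% of expanded Treg cells, against 14.3%, 22.02%, 10.1% and 15.1% of single Treg. The TRA chains read are part of what defines a clonotype here, so this share is given as a description. The difference was -9.84 percentage points ± 8.80 (SD, n = 4 pairs), lower in 4 of 4 libraries. With Treg of at least 2 Foxp3 UMIs, among which clone size was counted anew, it was -7.94 ± 14.9 points and lower in 3 of 4 libraries. Replicate 1 then had 17.1% in expanded against 10.2% in single Treg. The 0 of 77 and 0 of 19 cells of replicates 2 and 3 are cells of 19 and 8 clonotypes, which share their chains. A cell in which the second TRA was missed would also count as another clonotype, and the part of this in the difference was not tested.

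Over all Treg, expanded cells had higher medians of RNA molecules and of CD11a in every library, though 4 pairs cannot pass 0.05, and with at least 2 Foxp3 UMIs neither held in replicate 4. CD11a is the integrin chain of LFA-1 that activated T cells display at higher levels. Their median CD11a antibody count was 318, 292, 339 and 304 in replicates 1 to 4, against 236, 192, 209 and 215 in single Treg. The groups did not overlap, and the ratio was 1.35, 1.52, 1.62 and 1.41. On the log2(count + 1) scale the difference was 0.56 ± 0.12 (SD, n = 4 pairs, exact sign-flip permutation p = 0.13), and it was 0.25, positive in 3 of 4 libraries, with Treg of at least 2 Foxp3 UMIs. Median gene UMIs per cell were 6671, 8928, 8605 and 5221 in expanded Treg and 4929.5, 5410, 5001.5 and 4030 in single Treg, a difference of 0.58 ± 0.20 on the log2 scale (SD, n = 4 pairs, exact sign-flip permutation p = 0.13). With at least 2 Foxp3 UMIs it was 0.48 ± 0.41, with -0.12 in replicate 4 (exact sign-flip permutation p = 0.25). The part of this depth in the antibody counts was not tested. Since clone size was counted anew with at least 2 Foxp3 UMIs, some cells of expanded clones became single. In replicate 4 that setting had 29 expanded cells, while 39 expanded Treg of the main choice had at least 2 Foxp3 UMIs.

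**Figure D1:**
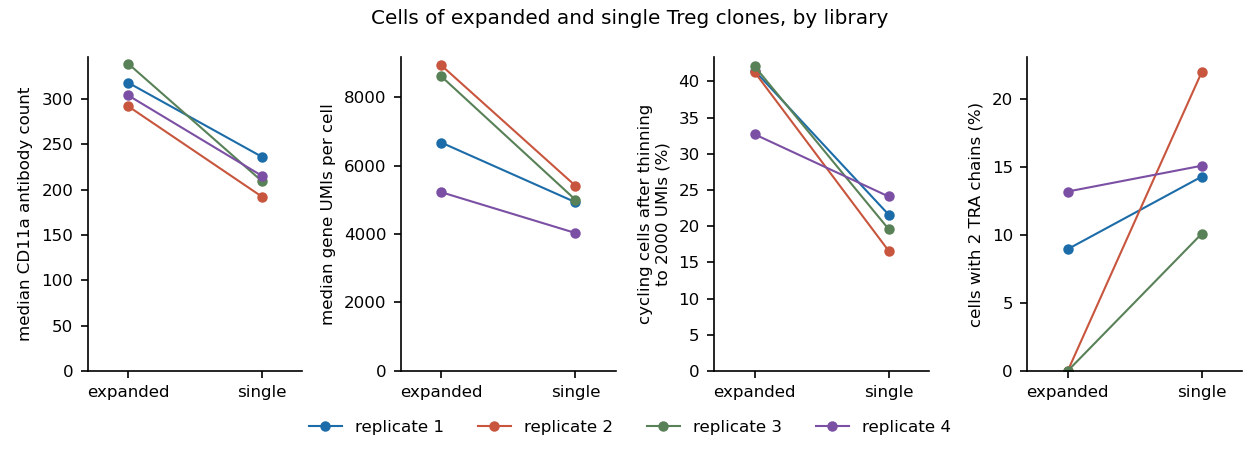
Values per library (lines join the expanded and single Treg of a replicate) for the median CD11a antibody count, the median gene UMIs per cell, the share of cycling cells after thinning to 2000 UMIs and the share of cells with 2 TRA chains. CD11a, UMIs and cycling lie higher in expanded Treg of every library, and a second TRA chain is less frequent.

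Gene expression was compared on UMI sums, 2376028 UMIs over the expanded and 5506307 over the single Treg, in edgeR's quasi-likelihood test with the library as block. Levels below are CPM scaled between sums by TMM, unless given as unscaled. A gene was called with a Benjamini-Hochberg adjusted p under 0.05. Of 8490 genes tested 528 were called (6.22%), 238 higher in expanded Treg (2.80%) and 290 lower (3.42%), and 506 of them had the same direction in all 4 libraries. The median log2 fold change over all genes was -0.01.

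These counts depend on which cells enter. They fell to 86 with Treg of at least 2 Foxp3 UMIs, whose clones were counted anew. They fell to 113 without clonotypes that also held CD4-gated cells lacking a Foxp3 UMI and to 168 in DESeq2. With 1 cell kept per clonotype, the first by barcode order, they fell to 19, and 70 expanded cells remained. In this order of settings, higher calls over all genes were 37 of 7792, 62 of 7390, 95 of 8490 and 8 of 7575 tested. Lower calls were 49, 51, 73 and 11. Direction held more widely than the calls. Of the called genes that could be tested, 507 of 507, 503 of 504, 528 of 528 and 496 of 509 kept their sign in these 4 settings. Of 69 called genes chosen by the naming rule, Ctla4, Lag3, Igfbp4 and Gm2682 were among those that kept their call with 1 cell per clonotype. In that setting the T cell lists below held a called gene in 4 cases alone: Treg identity 1, suppression 1, inhibitory receptors 2 and resting genes 4. These lists overlap: the identity gene was Ctla4, the suppression gene Lag3, and the inhibitory receptor genes the same 2. With at least 2 Foxp3 UMIs no gene of the cycling, metabolic, TNF receptor, early TCR, interferon and dissociation lists was called.

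Of the genes of Treg suppression and effector function 8 of 20 tested members were called higher in expanded Treg and 1 lower, with a list median of 0.62 on the log2 scale. With 1 cell per clonotype 1 of 19 was called higher, with at least 2 Foxp3 UMIs 5 of 18, and without clonotypes that hold Foxp3-zero cells 3 of 19. The list median was 0.34 without replicate 1. Lag3, an inhibitory receptor that binds MHC class II, had 481, 488, 480 and 625 CPM in expanded Treg of replicates 1 to 4, against 151, 187, 325 and 201 CPM in single Treg. The groups did not overlap (log2 fold change 1.34 ± 0.16 SE, edgeR adjusted p = 0.000376). Il10, the suppressive cytokine, had 124, 172, 57.8 and 148 CPM in expanded and 34.9, 75.5, 57.7 and 35.7 CPM in single Treg. It was thus level in replicate 3, the library with 19 expanded cells (1.4 ± 0.25, adjusted p = 0.0078). The call of Il10 ended with 1 cell per clonotype, without replicate 2 (adjusted p = 0.0516), without the largest clone of each library (adjusted p = 0.0906) and without clonotypes that hold Foxp3-zero cells, where its log2 fold change was 0.13 (adjusted p = 0.915 in edgeR).

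Gzmb, which encodes the protease granzyme B, showed the largest rise among the called genes that moved the same way in every library, with 131, 64.4, 182 and 192 CPM in expanded and 9.97, 28.9, 37.9 and 33 CPM in single Treg. Its log2 fold change was 2.36 ± 0.34 (edgeR adjusted p = 0.0105), but the call ended in 8 of the 18 alternatives in which it was tested. Among them were clones of at least 3 cells (edgeR adjusted p = 0.182), no replicate block (edgeR adjusted p = 0.0555) and no largest clone of each library. In replicate 3, 39 of its 41 expanded UMIs came from the 5-cell clone. Clones of 2 cells had 12.7, 121, 13.3 and 125 unscaled CPM in replicates 1 to 4, against 9.56, 27.8, 36.8 and 32.3 in single Treg. Prdm1, the gene of the effector Treg regulator Blimp-1, reached 224, 188, 182 and 127 CPM in expanded against 81.2, 94.7, 84.4 and 64.1 CPM in single Treg (1.14 ± 0.14, adjusted p = 3.95e-06). Maf and Tigit, a transcription factor that drives Il10 and a receptor that competes for CD155, rose by 0.81 ± 0.11 and 0.94 ± 0.12. Icos and Tnfrsf1b, costimulatory receptors that sustain effector Treg, rose by 0.62 ± 0.11 and 0.63 ± 0.13. The member called lower was Cd83, and Entpd1, Nt5e, Ebi3, Tgfb1, Fgl2 and Areg were among the 11 that did not pass.

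Of the Treg identity genes 4 of 14 were called higher and 2 lower, with a median of 0.12. Ctla4, the inhibitory receptor that strips CD80 and CD86 from antigen-presenting cells, had 2070, 1830, 1610 and 1970 CPM in expanded and 808, 1090, 1160 and 1110 CPM in single Treg. It was higher in every library without overlap (0.86 ± 0.11, edgeR adjusted p = 0.000112), and its call stood in all 19 alternative settings run. Itgb8, an integrin chain that activates TGF-β, and Capg, an actin-capping protein, rose by 0.82 ± 0.16 and 0.63 ± 0.11. Nrp1, a semaphorin receptor typical of thymus-derived Treg, fell to 41.5, 62.3, 31.1 and 38.5 CPM in expanded Treg, against 105, 112, 134 and 84.6 CPM in single Treg (-1.21 ± 0.18, adjusted p = 9.78e-05). Ikzf2 did not pass, at 943, 707, 769 and 684 CPM in expanded and 669, 669, 709 and 744 CPM in single Treg (0.15 ± 0.10, adjusted p = 0.46).

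Inhibitory receptor and exhaustion genes had 7 of 15 members called higher and none lower, with a median of 0.60. Without replicate 1 the median was 0.33, with 8 members above and 7 below 0, and 4 of 15 were called with at least 2 Foxp3 UMIs. Beside Ctla4, Lag3 and Tigit these included Havcr2 (TIM-3), Lgals1 (galectin-1) and Rgs16. Havcr2 stood at 46.5, 29.1, 26.7 and 48.1 CPM in expanded and 15.0, 12.8, 25.8 and 8.59 CPM in single Treg (1.42 ± 0.29, edgeR adjusted p = 0.00335). Its lowest expanded value, in replicate 3, was barely above the highest single one, in the same library. The call of Havcr2 ended in DESeq2, with 1 cell per clonotype and with at least 2 Foxp3 UMIs. It also ended without the largest clone of each library and without replicate 4 (edgeR adjusted p = 0.0671). Lgals1 rose by 0.90 ± 0.10 to a mean of 1480 CPM, against 792 CPM in single Treg. Pdcd1, Tox, Tox2 and Entpd1 did not pass.

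Of 11 chemokine receptor genes 3 were called higher, Cxcr6 and Ccr2 among them, and Ccr6 lower, with a list median of -0.12. Cxcr6, the receptor of CXCL16, had 97.9, 106, 173 and 144 CPM in expanded and 52.0, 43.3, 26.7 and 46.3 CPM in single Treg (1.54 ± 0.21, edgeR adjusted p = 0.000376). The groups did not overlap for Cxcr6. No chemokine receptor gene was called without clonotypes that hold Foxp3-zero cells, where Cxcr6 was at 0.82. Ccr2, the receptor of CCL2, rose by 1.05 ± 0.17, and Ccr6, the receptor of CCL20, fell by 1.07 ± 0.24. The call of Ccr2 was kept in 16 of 19 alternative settings and that of Ccr6 in 10 of 18. Cxcr3 and Ccr8 did not pass.

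Tbx21, the gene of the Th1 factor T-bet, had 76.3, 60.2, 53.3 and 55.8 CPM in expanded and 17.8, 29.7, 26.7 and 41.0 CPM in single Treg (1.12 ± 0.23, edgeR adjusted p = 0.00299). It was among the 5 of 13 Th1-type genes called higher, as were Cxcr6, Id2 and Hopx, while Stat4 was called lower and Ifng did not pass (list median 0.45). The higher calls were 3 of 13 in DESeq2, 1 of 13 with at least 2 Foxp3 UMIs, 1 of 12 without clonotypes that hold Foxp3-zero cells and 0 of 12 with 1 cell per clonotype, and Tbx21 was called in none of the last 3 settings. Higher calls over all genes fell in these settings too, to 95 of 8490, 37 of 7792, 62 of 7390 and 8 of 7575. Of 9 genes of follicular helper and regulatory cells Angptl2 was called higher and Sh2d1a and Slamf6 lower (median -0.38). Angptl2 had 97.9, 111, 35.6 and 78.8 CPM in expanded and 32.0, 41.7, 56.0 and 40.3 CPM in single Treg, the other way round in replicate 3. Its call ended in 7 of 18 settings, among them without replicate 1, 2 or 4, and DESeq2 called none of the 9 genes. Without cycling cells 3 of 8 genes were called higher and 1 lower, with a median of 0.66. Over all genes, that setting called 133 of 4706 higher and 89 lower.

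Among adhesion and residence genes, Itgae, whose product CD103 binds E-cadherin on epithelium, had 241, 193, 196 and 244 CPM in expanded and 78.3, 110, 135 and 134 CPM in single Treg (0.98 ± 0.14, edgeR adjusted p = 0.000127). Itgav rose by 0.51 ± 0.15, with its call kept in 9 of 19 alternative settings. Itgb1, the β1 integrin chain, fell to 206, 217, 151 and 208 CPM in expanded Treg, against 317, 390, 433 and 379 CPM in single Treg (-0.91 ± 0.12, adjusted p = 2.7e-05). Cd9 fell by 0.68 ± 0.20, but its call was kept in 5 of 18 alternative settings and ended whichever replicate was left out. These are 2 higher and 2 lower of 12 tested, with a median of 0.03.

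**Figure D2:**
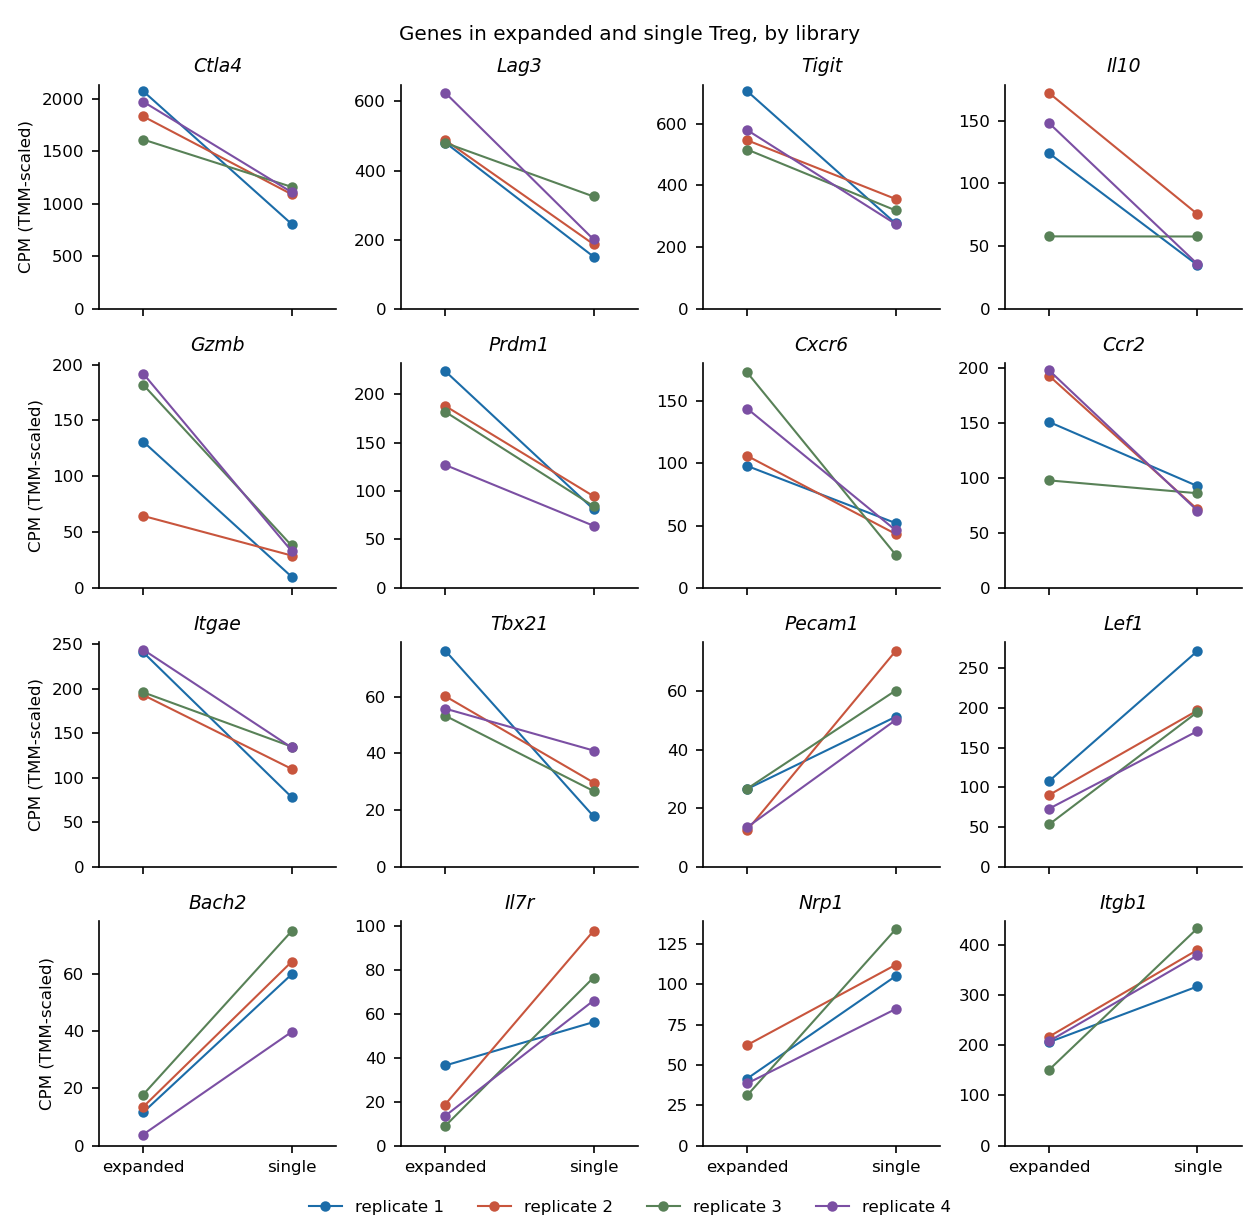
TMM-scaled CPM of 16 genes in the UMI sums of expanded (left) and single (right) Treg, 1 line per replicate, with axes that start at 0. The first 10 genes rise and the last 6 fall in expanded Treg, and Il10 in replicate 3 is level.

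Genes of resting, recirculating Treg had the lowest median of all lists but the acinar and stromal markers. None of 16 tested members was called higher and 12 were called lower, with a median log2 fold change of -1.56. With 1 cell per clonotype 4 of 16 were called lower, with at least 2 Foxp3 UMIs 7 of 14, and without clonotypes that hold Foxp3-zero cells 8 of 15. Lef1, a transcription factor of the naive state, fell to 108, 90.4, 53.3 and 73.1 CPM in expanded Treg, against 272, 197, 195 and 171 CPM in single Treg (-1.31 ± 0.14, adjusted p = 6.28e-07).

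Bach2, a repressor that keeps Treg from effector differentiation, had 11.6, 13.5, 17.8 and 3.85 CPM in expanded and 59.8, 64.2, 74.9 and 39.7 CPM in single Treg (-2.38 ± 0.25, edgeR adjusted p = 9.7e-07). Il7r, the IL-7 receptor chain, had 36.5, 18.7, 8.89 and 13.5 CPM in expanded and 56.3, 97.9, 76.6 and 66.1 CPM in single Treg (-1.84 ± 0.28, adjusted p = 0.000664). Named after their values were seen, Tcf7, Bcl2, Foxp1 and Ccr7 fell by 2.06 ± 0.31, 2.41 ± 0.26, 1.79 ± 0.21 and 1.24 ± 0.25. Klf2 and S1pr1, which drive exit from tissue, did not pass (-0.96 ± 0.43, adjusted p = 0.357, and -0.63 ± 0.20, adjusted p = 0.0901). In replicate 3 both stood above their single value.

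The deepest falls were in genes with almost no UMIs in expanded Treg. Igfbp4, an insulin-like growth factor binding protein of naive T cells, had 2 UMIs over the expanded and 196 over the single Treg, a ratio per UMI of 0.0236 (95% exact counting interval 0.00284 to 0.0866). Dapl1 had 2 and 106 UMIs (ratio 0.0437, interval 0.00523 to 0.162) and St8sia1, a sialyltransferase, 3 and 102 UMIs (ratio 0.0682, interval 0.0138 to 0.205). All 3 were called in edgeR, and the intervals cover counting error alone. St8sia6, another sialyltransferase, had 0, 2.08, 8.89 and 7.69 CPM in expanded and 39.2, 46.5, 46.5 and 26.4 CPM in single Treg (-3.44 ± 0.43, edgeR adjusted p = 2.37e-05). Tgfbr3, the TGF-β co-receptor betaglycan, had 5 UMIs over the expanded and 117 over the single Treg, and the 5 were all in replicate 2.

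Gm2682, a locus with no role given here, was at 24.9, 8.31, 8.89 and 9.61 CPM in expanded and 100, 114, 102 and 76.7 CPM in single Treg (-2.92 ± 0.25, edgeR adjusted p = 7.43e-08), and its call stood in all 19 settings. Pik3ip1, a brake on PI3K signalling, Rmdn1 and Gm34006 fell by 2.47 ± 0.55, 2.43 ± 0.42 and 2.42 ± 0.56 from low levels, with 5, 9 and 5 UMIs in expanded Treg. On the other side, Agpat4, a phospholipid acyltransferase, had 69.7, 69.6, 97.8 and 73.1 CPM in expanded and 23.5, 28.9, 30.1 and 25.1 CPM in single Treg (1.5 ± 0.19, adjusted p = 9.02e-06). Adam8, a membrane metalloprotease, and Ston2, an endocytic adaptor, rose by 1.45 ± 0.34 and 1.71 ± 0.43 on 56 and 38 UMIs in expanded Treg. The call of Adam8 ended in DESeq2, with at least 2 Foxp3 UMIs and without replicate 2 (edgeR adjusted p = 0.113) or 4 (0.128). That of Ston2 ended in DESeq2, with clonotypes counted among all CD4-gated cells and without the largest clone of each library. It also ended without replicate 2 (edgeR adjusted p = 0.136) or 3 (0.0718). Cdkn1a, the cell cycle inhibitor p21, rose by 1.39 ± 0.29, with an edgeR adjusted p of 0.0554 without replicate 1. Its call also ended with 1 cell per clonotype, without the largest clone of each library and without clonotypes that hold Foxp3-zero cells. The histone gene Hist1h2bg, whose reads near-identical histone genes can share, rose by 1.38 ± 0.25 and kept its call in 9 of 15 alternative settings. Ahr, the aryl hydrocarbon receptor, named after its values were seen, rose by 1.28 ± 0.13.

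**Figure D3:**
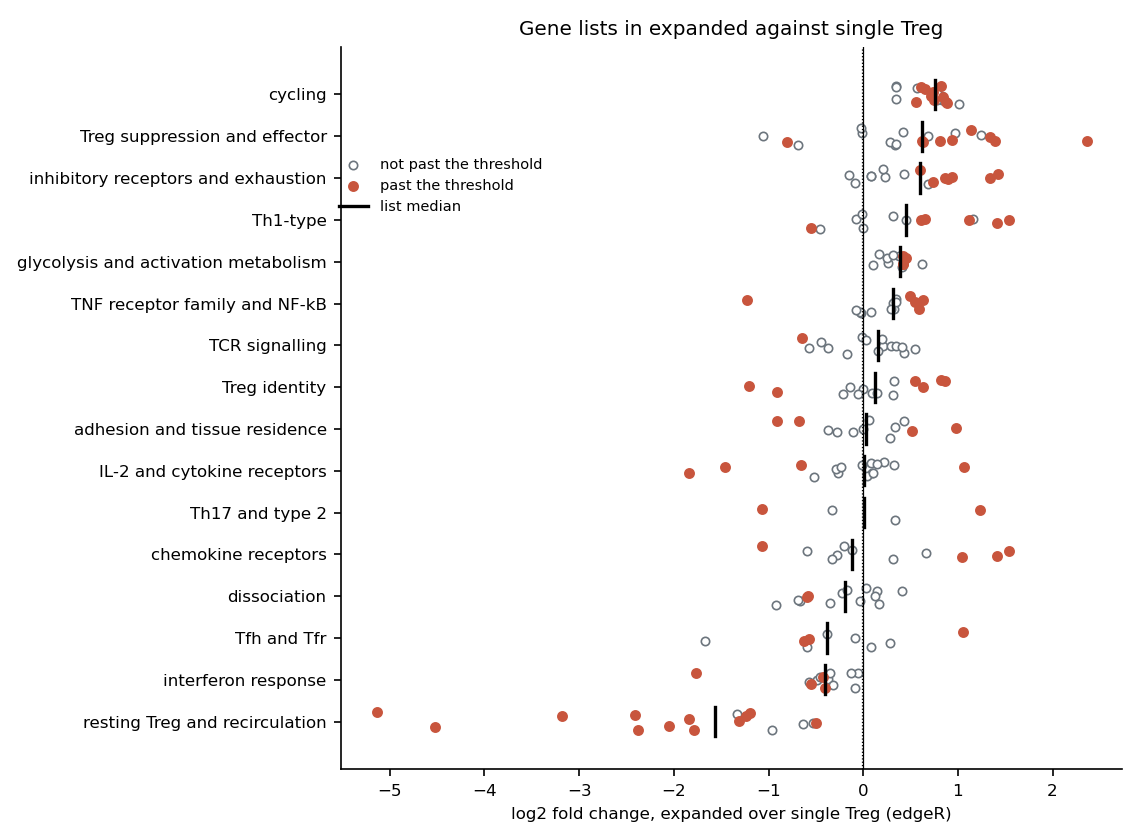
Log2 fold change (expanded over single Treg, edgeR) of each tested gene in 16 lists, filled where the adjusted p is under 0.05, with a black bar at the list median and a dotted line at the median of all genes (-0.01). The list of resting Treg lies lowest, with a median of -1.56, and the cycling list highest, with 0.76.

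Of the cell cycle genes 10 of 20 were called higher and none lower, with a median of 0.76. Birc5, the mitotic protein survivin, had 246, 254, 253 and 231 CPM in expanded and 178, 89.9, 127 and 152 CPM in single Treg (0.88 ± 0.15, edgeR adjusted p = 0.00087). Mki67, the gene of the proliferation marker Ki-67, did not pass, at 684, 642, 1040 and 700 CPM against 691, 280, 391 and 406 CPM (0.83 ± 0.28, adjusted p = 0.215). With 1 cell per clonotype no member of the list was called and its median was 0.06, and with at least 2 Foxp3 UMIs none was called. Mcm6, a subunit of the replication helicase, rose by 0.56 ± 0.11 in the full sums and was at 0.00 with 1 cell per clonotype.

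Counted by cell, at least 2 UMIs over the cycling list were found in 65.7%, 70.1%, 73.7% and 58.5% of expanded and 36.3%, 35.1%, 43.0% and 33.3% of single Treg. This share grows with depth. After thinning every cell to 2000 UMIs, which kept 65, 75, 19 and 52 expanded and 162, 163, 158 and 199 single cells, it was 41.5%, 41.3%, 42.1% and 32.7% in expanded and 21.6%, 16.6%, 19.6% and 24.1% in single Treg. The thinned difference of 18.9 percentage points ± 7.19 (SD, n = 4 pairs) was positive in 4 of 4 libraries (exact sign-flip permutation p = 0.13), against 30.04 ± 4.06 without thinning. With at least 2 Foxp3 UMIs the unthinned difference was 26.6 ± 18.3, positive in 3 of 4 libraries, replicate 4 having 48.3% in expanded and 48.9% in single Treg (exact sign-flip permutation p = 0.25). Without cells of 10 or more cycling UMIs, 427 genes were called, 243 of them among the 528.

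Gapdh, Ldha, Pkm and Tpi1 were called higher among 12 metabolic genes, with log2 fold changes of 0.42 to 0.46 and a list median of 0.39. The call of Tpi1 was kept in 7 of 19 alternative settings. Of 14 genes of the TNF receptor family and NF-κB pathway 4 were called higher (Tnfrsf4, which encodes OX40, Tnfrsf1b, Nfkb2 and Bcl2a1d, whose near-identical paralogs can share its reads) and Tnfrsf25 lower, with a median of 0.32. Among cytokine receptors Il1r2, the IL-1 decoy receptor, rose by 1.06 ± 0.23, while Il6ra, Il7r and Il4ra fell by 1.46 ± 0.23, 1.84 ± 0.28 and 0.66 ± 0.17 of 16 tested (median 0.01). The call of Il4ra was kept in 6 of 18 alternative settings.

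Of 15 early TCR signal genes tested Myc alone was called, lower by 0.65 ± 0.17, and the list median was 0.15. The call of Myc ended in 11 of 18 settings. Nr4a1, Egr1, Egr2 and Cd69 did not pass. Without cells over 2 times the median UMIs 3 of 14 genes of this list were called higher and none lower (median 0.53). Without cycling cells 2 of 14 were called higher (median 0.44). Over all genes, higher calls in these settings were 229 of 6207 and 133 of 4706 tested. Interferon response genes had 4 of 13 members called lower (Gbp2, Igtp and Rtp4 among them) and none higher, with a median of -0.40. The lower calls numbered 7 without replicate 1, 2 without replicate 2 and 1 without replicate 3 or 4, and 1 in DESeq2. Over all genes, lower calls in this order were 243 of 8523, 128 of 8147, 216 of 8624, 171 of 8541 and 73 of 8490 tested. No interferon gene was called with at least 2 Foxp3 UMIs, 1 cell per clonotype, clones of at least 3 cells or no clonotypes that hold Foxp3-zero cells. Rtp4 had 24.9, 3.12, 0 and 13.5 CPM in expanded and 43.4, 28.1, 37.9 and 43.0 CPM in single Treg (-1.76 ± 0.36, edgeR adjusted p = 0.00505). Of 14 dissociation genes Dnajb1 and Jun were called lower, in 3 of 4 libraries each (median -0.19). Their calls were kept in 10 and 9 of 19 alternative settings, and DESeq2 called none of the 14 genes.

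Markers of other cell types were read in the same sums. B cell markers totalled 379 to 638 unscaled CPM in expanded and 459 to 786 in single Treg, most of them Ighm, and none of the 6 genes was called. Myeloid markers totalled 12.6 to 586 in expanded and 10.3 to 186 in single Treg, the highest value coming from 498 UMIs of Lyz2 in the expanded sum of replicate 2. Acinar markers totalled 11.3 to 81.8 in expanded and 17.4 to 481 in single Treg, the highest in the single sum of replicate 1. Of 6 NK and iNKT markers 4 were at 0 in all expanded Treg, and of 5 stromal and endothelial markers 3 were. Pecam1 of that list, which resting T cells also express, was called lower (-1.71 ± 0.26, edgeR adjusted p = 0.000112). Endocrine markers reached 48.3 in expanded and 37.6 in single Treg. No doublet caller was run. Without cells over 2 times the median UMIs of the Treg of their library 428 genes were called, 458 of 461 testable calls keeping their sign.

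Expanded Treg clones often had members without a Foxp3 UMI. Such CD4-gated cells were found for 6 of 22, 12 of 19, 3 of 8 and 11 of 21 expanded clonotypes of replicates 1 to 4 (27.3%, 63.2%, 37.5% and 52.4%), against 8.33%, 8.93%, 6.96% and 5.02% of single clonotypes. The difference was 37.8 percentage points ± 16.02 (SD, n = 4 pairs) and positive in every library. Foxp3 UMIs and clone size chose the groups, so this difference is given as a description. A larger clone offers more cells that can lack a UMI, and the part of clone size in this difference was not tested.

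The 92 Foxp3-zero mates of expanded Treg clones carried Treg genes at unscaled levels far from those of other conventional cells. Ikzf2 stood at 757.1 unscaled CPM in them, near the 748.3 of the expanded Treg themselves, against 206.2 in expanded conventional cells that shared no clonotype with a Treg. Itgae was at 297.7 unscaled CPM in the mates, against 211.3 in expanded Treg and 2.28 in those other cells, and Tnfrsf18, the gene of GITR, at 343.0, 361.9 and 113.7. Ctla4 was lower in the mates than in expanded Treg, 1158 against 1851 unscaled CPM, and above the 406.4 of the other conventional cells. In replicate 3, with 3 mates, Ctla4 was at 459.3 in both the mates and the other expanded conventional cells. Il2ra, the IL-2 receptor α chain, was at 76.0 in the mates, 183.1 in expanded Treg and 35.4 in the other cells.

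The 224 mates of single Treg stood lower. These cells of 51 clonotypes had 229.2 CPM of Ikzf2, 15.4 of Itgae and 132.6 of Tnfrsf18, unscaled, and in replicates 2 to 4 they came as 78, 77 and 53 cells of 15, 11 and 11 clonotypes. In replicate 1, with 16 such cells, Ikzf2 stood at 549.3. The mates' median gene UMIs were 4607.5 in expanded clones and 5390 with single Treg. With clonotypes counted among all CD4-gated cells, 741 genes were called, 462 of them among the 528.

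**Figure D4:**
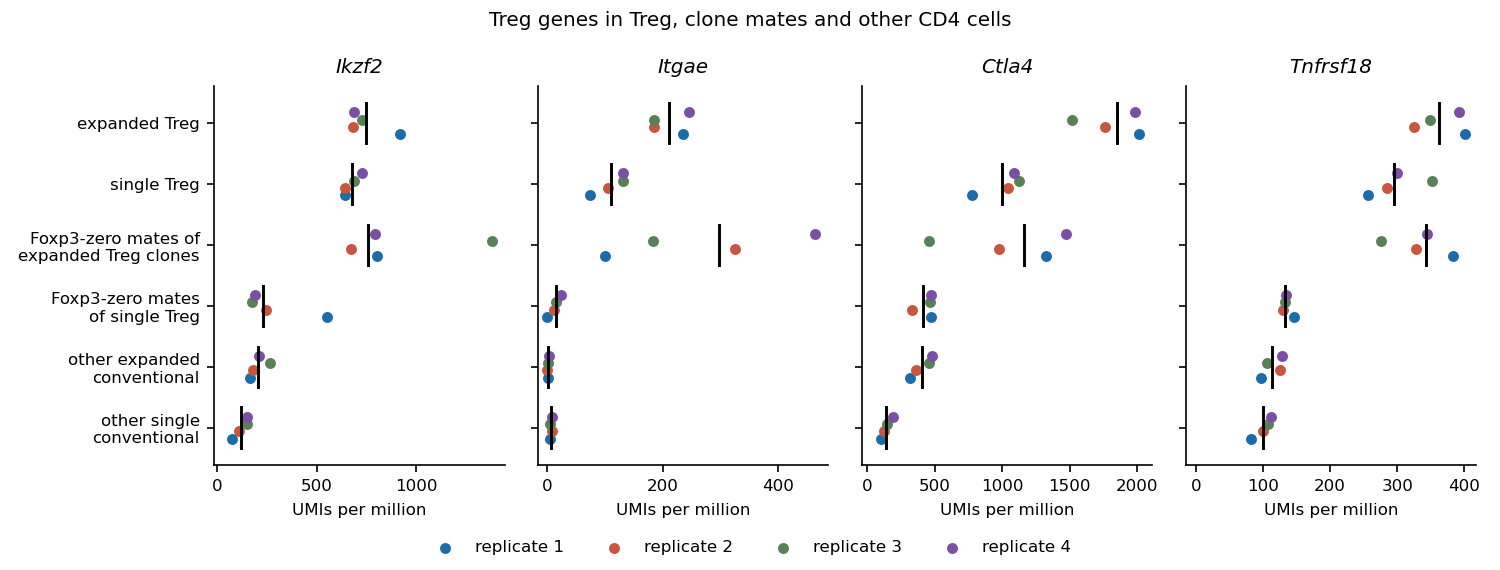
Unscaled CPM of 4 Treg genes in 6 groups of CD4-gated cells, with 1 point per replicate and a bar for all cells together. The Foxp3-zero mates of expanded Treg clones (92 cells, 3 of them in replicate 3) lie with the Treg for Ikzf2, Itgae and Tnfrsf18. For Ctla4 they lie below the expanded Treg of every library, and in replicate 3 level with the other expanded conventional cells. The mates of single Treg lie lower, near the conventional cells except for Ikzf2 in replicate 1.

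Levels by clone size varied between libraries. Il10 had 34.0, 68.3, 20 and 77.3 unscaled CPM in clones of 2 cells and 175, 188, 113 and 282 in clones of 3 or more, against 33.4, 72.6, 56.0 and 34.8 in single Treg. Clones of 2 cells therefore lay near single Treg for Il10 in replicates 1 and 2, below in replicate 3 and above in replicate 4. For Ctla4 the values were 2040, 1160, 1480 and 1250 in clones of 2, 2000, 1900, 1590 and 3350 in larger clones, and 774, 1040, 1120 and 1080 in single Treg. Replicate 3 has a single clone of 3 or more cells.

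The 14 clones of 4 or more cells differed from each other. Foxp3 UMIs were found in all 14, as the selection requires, from 113.4 to 497 unscaled CPM, as were Ikzf2 (295.1 to 1436), Ctla4 (436.7 to 4597) and Lag3 (87.9 to 1404). Gzmb was at 0 in 6 of them and highest, at 442.1, in the 5-cell clone of replicate 3. Il10 ranged up to 770.1 in a 9-cell TRBV31 clone of replicate 2 and was at 0 in 2 clones. Tcf7 was at 0 in 10.

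Mki67 was highest in the 5-cell clone of replicate 3 (1564 unscaled CPM) and the 14-cell clone of replicate 2 (1510), and at 0 in all 3 such clones of replicate 4. The 5-cell clone of replicate 4 with no Mki67 UMI had 495.5 unscaled CPM of Il10 and 1404 of Lag3. By contrast, a 4-cell TRBV19 clone of replicate 1 and a 4-cell TRBV2 clone of replicate 2 had 436.7 and 492 unscaled CPM of Ctla4, near the 406.4 of expanded conventional cells, with 0 for Gzmb and Cxcr6. Their Foxp3 levels were 247.9 and 140.6. Clone cells share their origin, so these values are descriptions of single clones.

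**Figure D5:**
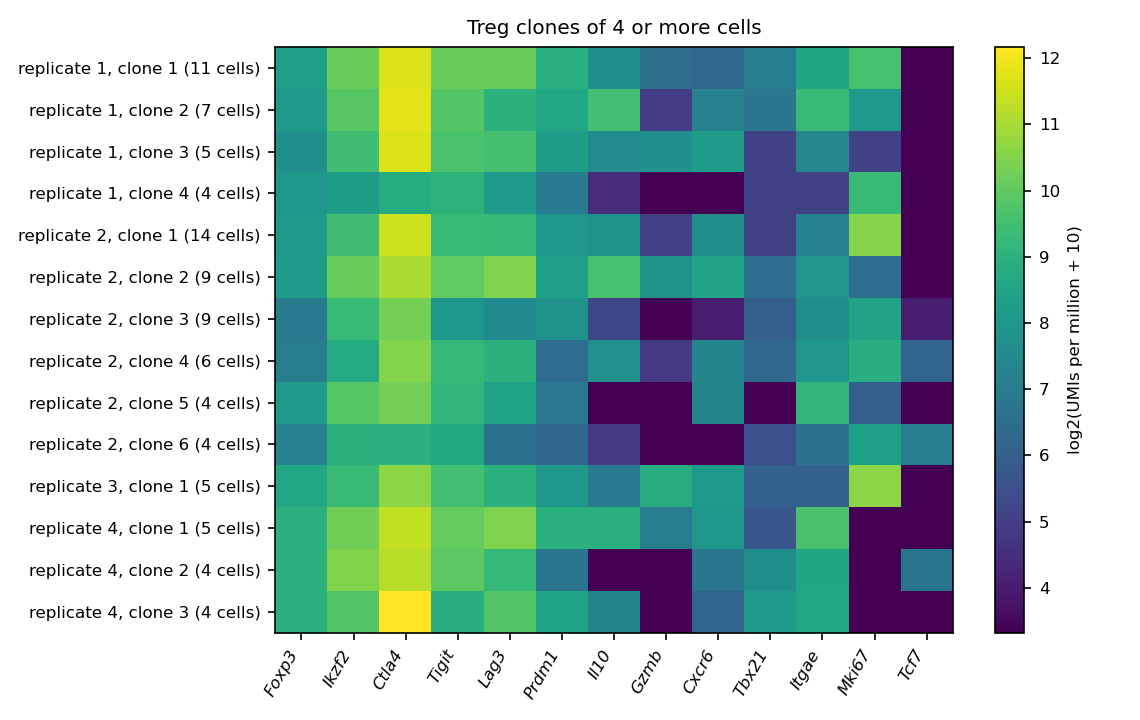
Heat map of log2(unscaled CPM + 10) for 13 genes in the 14 Treg clones of 4 or more cells, ordered by replicate and size. Foxp3, Ikzf2, Ctla4, Tigit and Lag3 are found in every clone, while Gzmb, Il10, Mki67 and Tcf7 vary between clones, Mki67 being at 0 in the 3 clones of replicate 4.

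The effect of expansion in Treg minus that in conventional cells was tested as an interaction in 1 model. The conventional cells of this test include the 92 Foxp3-zero mates of expanded Treg clones and the 224 mates of single Treg. The model called 954 of 10374 genes (9.20%), 324 with a higher effect in Treg (3.12%) and 630 with a lower one (6.07%). In the same model 45.8% of genes were called between expanded and single conventional cells. The 6 genes with the smallest p-values follow, and all had the same sign in 4 of 4 libraries.

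Bhlhe40, a transcription factor of activated T cells, had 207, 170, 189 and 190 CPM in expanded and 168, 173, 173 and 181 CPM in single Treg, a log2 fold change of 0.10. In conventional cells it had 257, 297, 249 and 269 CPM in expanded and 69.1, 87.4, 71.1 and 81.4 CPM in single cells, 1.80 ± 0.07, and the effects differed by -1.70 ± 0.12 (edgeR adjusted p = 2.49e-10). Treg of either kind thus lay between the 2 kinds of conventional cells. Ptger2, a prostaglandin E2 receptor, had an effect of -0.19 in Treg against 1.84 in conventional cells. For Dusp4, a MAP kinase phosphatase, the effects were 0.35 and 2.29, and its levels in expanded Treg (183, 174, 146 and 120 CPM) lay above those in expanded conventional cells (87.5, 144, 92.5 and 99.1 CPM).

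Serpinb6a, a protease inhibitor, had an effect of -0.73 in Treg and 1.42 ± 0.09 in conventional cells (difference -2.15 ± 0.20, edgeR adjusted p = 3.56e-08). Between expanded and single Treg alone its call ended in 11 of 18 settings, and without cycling cells it was at 0.37. Trib2, a pseudokinase, had 129, 90.2, 211 and 99.7 CPM in expanded and 84.3, 67.7, 83.5 and 78.3 CPM in single Treg, but 51.2, 38.3, 48.1 and 46.4 CPM in expanded and 124, 98.0, 116 and 90.6 CPM in single conventional cells (difference 1.84 ± 0.17, adjusted p = 3.56e-08). The call of Trib2 in Treg ended in 11 of 19 settings, among them without clonotypes that hold Foxp3-zero cells. Cytip, a cytohesin-binding adaptor, had an effect of 0.08 in Treg and fell by 1.08 in conventional cells, a difference of 1.16 ± 0.11.

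Resting genes had medians of -1.56 in Treg and -1.54 in conventional cells, and 5 of 16 passed the interaction test. Of 13 follicular helper genes 9 passed it, all with a lower effect in Treg, and their medians were -0.53 in Treg and 2.15 in conventional cells. All 20 cycling genes were called higher in expanded conventional cells, and 12 of 20 passed the interaction test with a lower effect in Treg (medians 0.75 in Treg and 1.66 in conventional cells). Unthinned shares of single cells with at least 2 cycling UMIs were 36.3%, 35.1%, 43.0% and 33.3% in Treg and 12.6%, 12.6%, 14.0% and 12.5% in conventional cells. In expanded cells they were 65.7%, 70.1%, 73.7% and 58.5% in Treg and 40.8%, 37.6%, 40.3% and 38.2% in conventional cells. The Treg also had higher medians of gene UMIs per cell in every library. For Gzmb the effect was 2.31 in Treg and 0.28 in conventional cells, and the difference of 2.03 ± 0.85 did not pass (edgeR adjusted p = 0.202).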

How the data were processed

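The authors deposited raw UMI counts per gene, antibody and cell barcode, written by Cell Ranger 4.0.0 per the file headers, and tables of receptor contigs with counts of UMIs and reads. The submitters' processing notes name mm10 and Seurat, with no version or role, and other upstream settings are not stated there. Gene UMIs in the 4 libraries came to 34661827, 26861163, 37834174 and 32141055.

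Cells were chosen by the gates given in the report, and the members, gene lists and tests were chosen with earlier results of these data known. UMIs were summed per library and side, without TCR segments, immunoglobulin V, D and J segments, mitochondrial genes and the genes of the gates. The sums were tested in edgeR 4.0.16 (R 4.3.3) after filterByExpr and TMM scaling, by robust quasi-likelihood with the library as block and Benjamini-Hochberg adjustment, and DESeq2 1.42.0 was an alternative. The test was tested on simulated data. Pairing comes from the design, as both sides lie in 1 library, and residuals of paired sums correlated by 0.06, 0.12, 0.11 and 0.35. Single measures used exact sign-flip permutation over 4 pairs, two-sided. Named genes were the 10 largest rises and falls called in the same direction in 4 libraries, up to 4 per list by p, and 6 by the interaction. Sums weight cells by their UMIs. Ambient RNA was not removed. Some measured items are not reported here. Settings tried are in the closing section.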

Additional observations from a re-analysis of the deposited data

Results flagged for a closer look

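Of 76 sets of 4 library differences checked for a single distant value, 2 had one, and about 1 in 20 would by chance. Slamf6, a SLAM family receptor, differed by -0.108 on the log2(CPM + 10) scale between expanded and single Treg in replicate 3, closer to 0 than in the other libraries. Gbp2, an interferon-induced GTPase, differed by -0.138 in replicate 1, likewise closer to 0 than elsewhere. The effect of expansion differed between Treg and conventional CD4 cells, by the interaction test in edgeR (log2, Treg minus conventional), by -1.70 for Bhlhe40, -2.03 for Ptger2, -1.94 for Dusp4, 1.84 for Trib2, -2.15 for Serpinb6a and 1.16 for Cytip.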

How the results depend on the processing

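The 528 genes called between expanded and single Treg became 168 in DESeq2, 19 with 1 cell per clonotype, 86 with at least 2 Foxp3 UMIs, 222 without cycling cells (4706 genes tested), 238 with clones of at least 3 cells, 188 after thinning cells to 1000 UMIs (2172 tested) and, in a setting chosen after seeing the data, 113 without clonotypes that hold CD4-gated cells lacking a Foxp3 UMI. Leaving out 1 library gave 278 (without replicate 2) to 477 calls, with 343 without replicate 4. Without the replicate block, 412 genes were called in place of 528 in the paired fit, 399 of them the same genes. The interaction count of 954 was 229 with 1 cell per clonotype, 705 without the block and 594 to 777 with 1 library left out. RLE scaling, no filter on low counts, no cells over 2 times the median UMIs, no largest clones, clonotypes counted among all CD4-gated cells and, added later, clonotypes from TRB alone or no cells of 10 or more cycling UMIs gave 411 to 741 calls. The share of higher calls was 45.1% in the main test and 56.5% in DESeq2, 59.9% without cycling cells and 54.9% without mixed clonotypes. Of 1214 alternative values of the 69 called named genes 891 kept sign and call, 320 lost the call and 3 changed sign: Mcm6 (-0.0045, 1 cell per clonotype), Serpinb6a (0.37, without cycling cells) and Trib2 (-0.021, without mixed clonotypes). Signs also changed for Mki67 (-0.30) and Klf2 (0.0079) with 1 cell per clonotype and for Ikzf2 (-0.055) with clonotypes counted among all CD4-gated cells, none of them called in the main test. The CD11a difference of 0.56 was 0.25 with at least 2 Foxp3 UMIs (0.51 to 0.60 with 1 library left out), and that of gene UMIs, 0.58, was 0.35 with 1 cell per clonotype (0.51 to 0.65). The cycling difference of 30.04 points was 39.7 with clones of at least 3 cells and, in settings added later, 18.9 after thinning and 17.4 with at least 10 cycling UMIs (28.4 to 31.7 with 1 library left out). The share of clonotypes with Foxp3-zero cells differed by 72.1 points with clones of at least 3 cells (32.3 to 44.0), that of cells with 2 TRA chains by -12.5 to -5.77, and the Treg minus conventional share of expanded cells by -5.31 without thinning (5.24 to 10.9). The causes of these changes were not tested. Depth limits genes of few UMIs, since replicate 3 has 238271 UMIs in its expanded sum.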
